A study of Mus musculus with 18 samples.

Results

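The 10 genes described here encode the proteins that fill, empty and refill the calcium store of the endoplasmic reticulum (ER): the SERCA pumps (Atp2a2, Atp2a3), the inositol trisphosphate (IP3) receptors (Itpr1, Itpr2, Itpr3), the STIM calcium sensors (Stim1, Stim2) and the ORAI channels (Orai1, Orai2, Orai3). They were chosen by name for their role, and each was found once among the 51499 loci of the deposited table. All 10 were among the 11929 loci whose mean over the 6 groups reached 1 FPKM, where FPKM is the number of fragments scaled for transcript length and for library size. RNA was sequenced from 18 libraries of mouse embryonic fibroblasts, 3 in each of 6 groups, to ask which mRNAs depend on the Argonaute protein AGO2 when the ER is stressed. Cells labelled Ago2+/+ or Ago2-/- received the solvent DMSO, tunicamycin at 3 µg per ml or thapsigargin at 500 nM, the stressors for 6 h after 3 d of growth. The number of embryos or clones behind each fibroblast line, and the part of Ago2 removed in the knockout, are stated in no source used here. The labels name DMSO for the control groups, whereas the methods of the study describe the control cells of the sequencing experiment as untreated. The table gives 1 value for each group, pooled by the authors over its libraries. No replicate spread, SD or test therefore stands behind any value here, the depth of the libraries is unknown, and no neighbouring pair of groups can be ordered against replicate error.

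SERCA pumps move calcium from the cytosol into the ER lumen at the cost of ATP, and thapsigargin blocks them directly, so that calcium leaking from the ER is no longer returned. IP3 receptors release the stored calcium when phospholipase C makes IP3. STIM proteins span the ER membrane, sense the loss of luminal calcium, and then gather at contacts with the plasma membrane, where they open ORAI channels and let calcium in from outside, a process called store-operated entry. Tunicamycin blocks N-linked glycosylation and stresses the ER by another route.

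The promoters are shown for the 3 members with the highest ratio between their highest and lowest group, Itpr2, Stim2 and Orai1, since the results below turn on these. In the RefSeq promoter table (build GRCm38.p6) a window holds 250 bases before a gene's start and 50 after it, 300 in all. Of the 10 members, 8 had a window there, and Atp2a2 and Itpr1 did not. Capitals mark CCAAT and CCACG on either strand, the outer parts of the ER stress element (ERSE), which reads CCAAT, then 9 bases of any kind, then CCACG.
Stim2, chr5:53998273-53998572, plus strand: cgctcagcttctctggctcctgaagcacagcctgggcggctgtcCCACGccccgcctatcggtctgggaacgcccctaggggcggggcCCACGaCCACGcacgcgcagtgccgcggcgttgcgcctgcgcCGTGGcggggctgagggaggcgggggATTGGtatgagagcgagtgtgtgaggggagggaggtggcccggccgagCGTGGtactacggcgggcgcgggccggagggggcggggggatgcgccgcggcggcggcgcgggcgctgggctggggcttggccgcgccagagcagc
Orai1, chr5:123014824-123015123, plus strand: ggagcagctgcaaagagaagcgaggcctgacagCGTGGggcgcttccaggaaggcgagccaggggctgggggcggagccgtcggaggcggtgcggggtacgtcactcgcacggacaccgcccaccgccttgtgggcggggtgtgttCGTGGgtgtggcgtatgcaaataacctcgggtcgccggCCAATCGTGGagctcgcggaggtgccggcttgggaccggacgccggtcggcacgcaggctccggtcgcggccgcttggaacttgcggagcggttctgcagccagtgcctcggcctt
Itpr2, chr6:146502174-146502473, minus strand: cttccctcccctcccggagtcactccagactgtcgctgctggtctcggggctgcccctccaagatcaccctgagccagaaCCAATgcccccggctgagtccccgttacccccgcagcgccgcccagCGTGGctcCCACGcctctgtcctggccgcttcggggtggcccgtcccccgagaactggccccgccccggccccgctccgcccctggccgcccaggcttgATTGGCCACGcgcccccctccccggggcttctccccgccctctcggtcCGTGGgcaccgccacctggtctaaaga

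For comparison, the promoter of Hspa5, which encodes the ER chaperone BiP, holds a complete ERSE on the plus strand at chr2:34772025-34772043, 65 bases before the start, in which capitals mark the outer parts.
Hspa5 ERSE: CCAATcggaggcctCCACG

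The complete ERSE was found in 39 of all 32851 windows (0.119%), among them those of Hspa5, Calr and Hsp90b1, and in 0 of the 8 member windows. The ERSE-II (ATTGG, 1 base, CCACG) was in 12 windows (0.0365%), including that of Herpud1, and in 0 of the 8. The core of the unfolded protein response element (UPRE, TGACGTGG) was in 222 windows (0.676%), the ATF4-CHOP element (TGATG, 1 base, AAT) was in 317 (0.965%), and neither was in a member window. These 4 motifs were searched on both strands and share bases, since ERSE and ERSE-II both contain CCACG. The outer parts alone are common: CCAAT was in 37.4% of all windows and in 4 of the 8 members (Stim2, Orai1, Itpr2 and Orai3), and CCACG was in 32.8% of all windows and in 6 of the 8 (the same 4 with Orai2 and Itpr3). Stim2 held 1 CCAAT and 5 CCACG, Orai1 held 1 and 3, and Itpr2 held 2 and 4. In the Itpr2 window a reversed CCAAT lay directly against a CCACG, without the single base that parts them in the ERSE-II. These are matches of letters and not binding sites.

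The labels of the groups need a caution before any member is read by them. The genotype fields conflict in 4 libraries, namely replicate 2 under each treatment of Ago2+/+ and replicate 3 of DMSO-treated Ago2-/- cells, and the pooled table offers no way to set these aside. The level of Ago2 was 22.1, 5.75 and 17.0 FPKM under the label Ago2+/+ and 5.61, 15.5 and 20.7 under Ago2-/-, each with DMSO, tunicamycin and thapsigargin in this order. It was thus low in 1 group of each label. All 4 Y-linked genes examined (Uty, Kdm5d, Ddx3y and Eif2s3y) stood at 0 except in Ago2+/+ thapsigargin and Ago2-/- tunicamycin, and the Xist locus reached 46.6 FPKM in Ago2+/+ DMSO and 33.5 in Ago2-/- thapsigargin but at most 0.0574 elsewhere. Over all loci the 6 groups lay in 3 close pairs, namely Ago2+/+ tunicamycin with Ago2-/- DMSO, Ago2+/+ thapsigargin with Ago2-/- tunicamycin, and Ago2+/+ DMSO with Ago2-/- thapsigargin, and each pair joins groups that differ in both labels. Of the stress markers, Hspa5 reached 4808 FPKM with DMSO under the label Ago2+/+ and 7682 with DMSO under Ago2-/-, and between 3677 and 6746 in the 4 stressed groups. Ddit3, which encodes the stress factor CHOP, ranged from 237 to 349 FPKM and was at 339 in Ago2-/- DMSO. Dnajb9, which encodes an ER cochaperone, ranged wider, at 9.86, 28.2 and 31.4 FPKM under Ago2+/+ and 29.0, 35.7 and 9.05 under Ago2-/- in the same order of treatments. Creld2, another ER stress gene, gave log2 ratios to DMSO of 0.90 and 1.03 for tunicamycin and thapsigargin under Ago2+/+ and of 0.54 and -1.65 under Ago2-/-. Of 10 such stress genes, 8 lay above DMSO with tunicamycin and 8 with thapsigargin under Ago2+/+, against 8 and 2 under Ago2-/-. The directions below hold for the labels only, and each group is named by its label. Genes on the opposite strand overlap Atp2a2, Itpr1, Itpr2, Itpr3, Stim1, Stim2 and Orai1, and their fragments cannot be told apart where strand is not recorded, whereas none overlaps Atp2a3, Orai2 or Orai3.

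Markers of other cell types differed between these close pairs as well. Summed over 8 contractile markers the level was 2502 FPKM in Ago2+/+ thapsigargin and 1864 in Ago2-/- tunicamycin, against 26.2 to 39.0 in the other 4. The high sums were led by Acta2, and not every marker shared them. Des was instead highest in Ago2+/+ DMSO and Ago2-/- thapsigargin, at 2.95 and 2.58 FPKM, and between 0.250 and 0.499 elsewhere. Smtn ranged only from 23.6 to 45.6 FPKM, and Myh11 and Myocd had means below 1. The striated muscle list summed to 56.4 and 65.9 FPKM in Ago2+/+ tunicamycin and Ago2-/- DMSO, nearly all of it Tnnt2, with Myod1 and Myog at or near 0. Sums of 10 fibroblast markers ran from 1597 to 2975 FPKM and were led by Vim (952 to 2634), although Thy1 was listed at 0 and Dcn and Lum had means below 1. The sum hides wider ranges, since Col1a1 ran from 5.97 FPKM in Ago2-/- DMSO to 651 in Ago2-/- tunicamycin, Col1a2 from 23.7 to 577 and Pdgfrb from 0.540 to 17.9. Leukocyte and endothelial sums were at most 2.36 and 0.53 FPKM, with Adgre1, Cd3e and Emcn at 0 in every group, and epithelial sums were between 1.58 and 16.0 FPKM, highest where Krt19 was (15.8 FPKM in Ago2+/+ thapsigargin), with Cldn3 at 0. The part of these differences in the members' values was not tested. In such bulk RNA, fewer cells of a type and less RNA per cell cannot be told apart.

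Atp2a2 was the most abundant of the 10 genes by a wide margin. It encodes SERCA2, the pump found in nearly every cell, and lies on chr5:122453513-122502225 (GRCm38, minus strand). Under the label Ago2+/+, its level was 272 FPKM with DMSO, 240.5 with tunicamycin and 240.6 with thapsigargin, while under Ago2-/- the values were 252, 236 and 239.5. As a ratio of FPKM + 0.1, the form of every fold given here, the highest group exceeded the lowest by 1.15-fold. This range was narrower than in all but 1.69% of loci, and the median ratio of all loci was 1.74. The mean of Atp2a2 exceeded that of 97.1% of loci. Atp2a2 was also the only member of the 10 with both DMSO groups above all 4 groups given a stressor, an order found at 2.95% of all loci. The differences were small: thapsigargin against DMSO gave a log2 ratio of -0.17 in the groups labelled Ago2+/+ and -0.07 in those labelled Ago2-/-, and tunicamycin gave -0.18 and -0.09.

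Atp2a3, which encodes SERCA3 (chr11:72961169-72993044, plus strand), was by contrast close to the lower limit of what is described here. With DMSO, tunicamycin and thapsigargin, in this order, its level was 1.23, 0.823 and 1.32 FPKM where the label was Ago2+/+ and 1.13, 1.63 and 1.25 where it was Ago2-/-. Both extremes were thus tunicamycin groups, 1.87-fold apart, at a mean of 1.23 FPKM that exceeded only 2.36% of loci. Atp2a2 made up between 99.3% and 99.7% of the summed SERCA FPKM. Atp2a1, the muscle pump, and the small SERCA inhibitors Pln, Sln and Mrln had means below 1 FPKM.

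**Figure D1:**
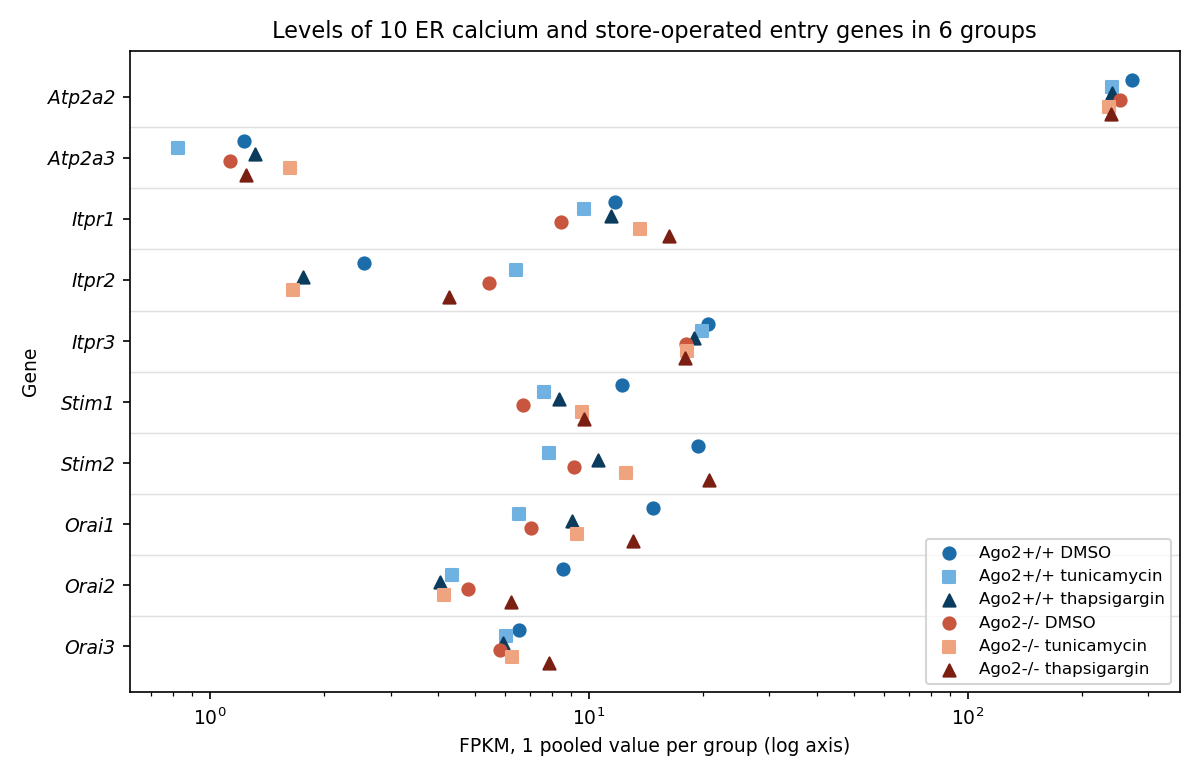
The horizontal axis gives FPKM on a log scale, 1 pooled value per group as 1 point, with circles for DMSO, squares for tunicamycin and triangles for thapsigargin, in blue for the groups labelled Ago2+/+ and red for those labelled Ago2-/-. Atp2a2 stands between 236 and 272 FPKM, the points of Atp2a2 and Itpr3 lie closest together, and those of Itpr2 are spread the widest.

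Among the IP3 receptors, Itpr3 had the highest level in every group and scarcely varied. It lies on chr17:27057304-27122223 (plus strand). Its level was 20.6, 19.9 and 19.0 FPKM under the label Ago2+/+ and 18.1, 18.2 and 17.9 under Ago2-/-, each with DMSO, tunicamycin and thapsigargin in this order. The range was 1.15-fold, narrower than in all but 1.73% of loci. Itpr3 was the only member with all 3 groups labelled Ago2+/+ above all 3 labelled Ago2-/-, an order found at 0.528% of loci, although the largest of the 3 log2 differences between the labels was -0.19, under DMSO. The row of Itpr3 also carries the identifier of the microRNA gene Mir7677, and the antisense gene Itpr3os overlaps it.

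Itpr1 encodes the receptor best known from the brain and lies on chr6:108213096-108551109 (plus strand). Under the label Ago2+/+, it was at 11.7 FPKM with DMSO, 9.74 with tunicamycin and 11.4 with thapsigargin, while under Ago2-/- the values were 8.44, 13.6 and 16.3. Both stressed groups labelled Ago2-/- were thus the highest and their DMSO group the lowest, by 1.92-fold. In the groups labelled Ago2+/+, both stressed groups were below DMSO, with log2 ratios of -0.27 and -0.04.

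Itpr2 varied the most of the 10 members. It lies on chr6:146108299-146502223 (minus strand), and its product is the receptor most sensitive to IP3. With DMSO, tunicamycin and thapsigargin, in this order, its level was 2.54, 6.44 and 1.77 FPKM where the label was Ago2+/+ and 5.45, 1.65 and 4.28 where it was Ago2-/-. The highest group was 3.73-fold above the lowest, a wider range than at 82.7% of loci. Tunicamycin against DMSO gave a log2 ratio of 1.31 in the groups labelled Ago2+/+ and of -1.66 in those labelled Ago2-/-, so the directions were opposite. The labelled Ago2-/- group was above the labelled Ago2+/+ group by 1.07 (log2) under DMSO and 1.23 under thapsigargin, and below it by a log2 ratio of -1.90 under tunicamycin.

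The 3 receptors together gave nearly the same summed FPKM in every group, from 32.0 to 38.5, while their mixture differed. Itpr2 made up 17.9% of the sum in Ago2+/+ tunicamycin, 17.1% in Ago2-/- DMSO and 11.1% in Ago2-/- thapsigargin, against 7.29% in Ago2+/+ DMSO, 5.49% in Ago2+/+ thapsigargin and 4.94% in Ago2-/- tunicamycin. Itpr1 made up 42.4% in Ago2-/- thapsigargin, its highest share, and 26.4% in Ago2-/- DMSO, its lowest. Itpr3 remained the largest part, between 46.5% and 59.0%. The FPKM of the main pump Atp2a2 was between 6.22 times this sum, in Ago2-/- thapsigargin, and 7.89 times, in Ago2-/- DMSO.

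Summed over both genes, the STIM sensors were higher in Ago2+/+ DMSO and Ago2-/- thapsigargin than in the other 4 groups. Stim2, which senses small losses of luminal calcium, lies on chr5:53998499-54121057 (plus strand). It was at 19.5, 7.87 and 10.6 FPKM under the label Ago2+/+ and at 9.15, 12.5 and 20.8 under Ago2-/-, each with DMSO, tunicamycin and thapsigargin in this order. The range was 2.62-fold, wider than at 75.2% of loci. Under thapsigargin the log2 ratio to DMSO was -0.87 in the groups labelled Ago2+/+ and 1.17 in those labelled Ago2-/-. Under tunicamycin it was -1.30 and 0.45.

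Stim1, the main activator of ORAI channels, lies on chr7:102267806-102437319 (plus strand). Under the label Ago2+/+, it was at 12.2 FPKM with DMSO, 7.63 with tunicamycin and 8.36 with thapsigargin, while under Ago2-/- the values were 6.72, 9.58 and 9.70. The DMSO group labelled Ago2+/+ was the highest for Stim1, and that labelled Ago2-/- the lowest, by 1.81-fold. Both STIM genes together summed to 31.7 and 30.5 FPKM in Ago2+/+ DMSO and Ago2-/- thapsigargin and to between 15.5 and 22.1 in the other 4 groups. Stim2 was the larger part everywhere, from 50.8% in Ago2+/+ tunicamycin to 68.2% in Ago2-/- thapsigargin.

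The ORAI channels, the pores of store-operated entry, followed a similar order. Orai1 lies on chr5:123015074-123030456 (plus strand) and forms the classical calcium release-activated channel. With DMSO, tunicamycin and thapsigargin, in this order, it was at 14.8, 6.57 and 9.01 FPKM where the label was Ago2+/+ and at 7.05, 9.31 and 13.1 where it was Ago2-/-. The range was 2.24-fold, and the log2 ratio of thapsigargin to DMSO was -0.71 in the groups labelled Ago2+/+ and 0.89 in those labelled Ago2-/-. The locus of its row in the table spans 180.4 kb, against 15.4 kb for the annotated gene, so other transcripts may add to this value.

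Orai2 (chr5:136147459-136170713, minus strand) was at 8.55, 4.34 and 4.05 FPKM under the label Ago2+/+ and at 4.80, 4.14 and 6.23 under Ago2-/-, each with DMSO, tunicamycin and thapsigargin in this order. It was the only member past 2-fold between thapsigargin and DMSO in the groups labelled Ago2+/+, at a log2 ratio of -1.06. Orai3, the channel subunit found only in mammals, lies on chr7:127769815-127775150 (plus strand) and was the steadiest of this family. Under the label Ago2+/+, its level was 6.57 FPKM with DMSO, 6.04 with tunicamycin and 5.96 with thapsigargin, while under Ago2-/- the values were 5.83, 6.29 and 7.84. Its range of 1.34-fold was narrower than at most loci, with only 15.9% below it.

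The summed ORAI level was 29.9 and 27.2 FPKM in Ago2+/+ DMSO and Ago2-/- thapsigargin, and between 16.9 and 19.7 in the other 4 groups. Orai1 was the largest part in every group, from 38.7% in Ago2+/+ tunicamycin to 49.5% in Ago2+/+ DMSO. At the level of mRNA, the STIM and ORAI sums stood near 1 to 1 throughout. The summed STIM FPKM was between 0.897 and 1.12 times the summed ORAI FPKM, while each sum ranged widely. The ORAI sums and shares include the Orai1 row, to which other transcripts may add.

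**Figure D2:**
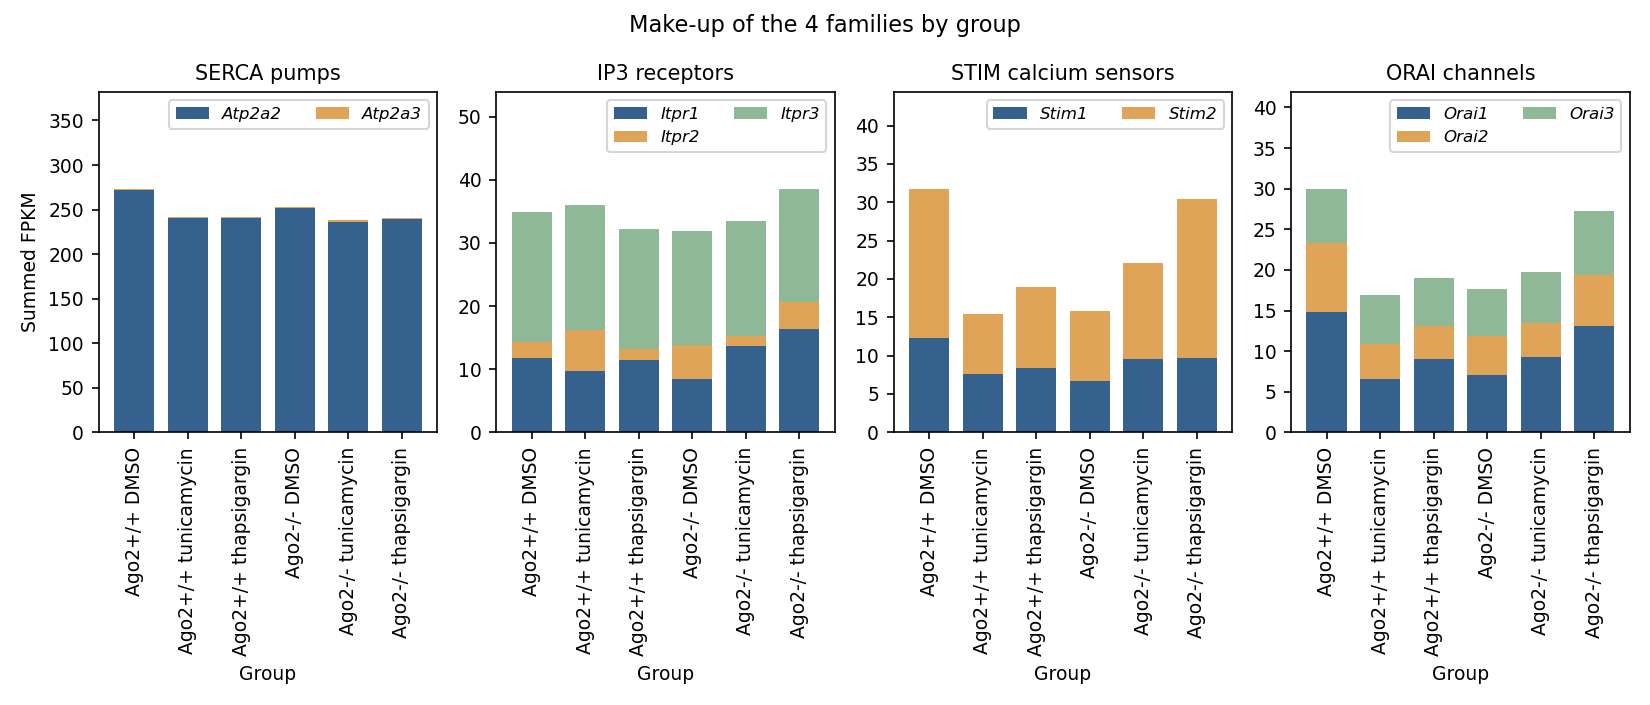
Each bar gives the FPKM of 1 group summed over a family, coloured by gene, in 4 panels with their own vertical axes from 0. The IP3 receptor bars stand between 32.0 and 38.5 FPKM with a changing Itpr2 part, whereas the STIM and ORAI bars are tallest in Ago2+/+ DMSO and Ago2-/- thapsigargin.

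Under the label Ago2+/+, the tunicamycin group was set against its DMSO group to ask which of the genes differ when glycosylation is blocked. At a limit of 2-fold, Itpr2 was higher (log2 1.31) and Stim2 and Orai1 were lower (-1.30 and -1.16), which is 1 member of 10 higher and 2 lower. Of all loci passing the same minimum, 9.61% were at least 2-fold higher and 8.29% at least 2-fold lower. Of the 10 members, 9 had a log2 ratio below 0, with a median of -0.40, against 0.0062 over all loci. Thapsigargin against the same DMSO group gave 0 members higher and 1 lower (Orai2), with 9.27% and 7.54% of all loci. Again 9 of 10 log2 ratios were below 0, with a median of -0.34, against 0.0119 over all loci, and the exception was Atp2a3 at 0.10. Both comparisons share the Ago2+/+ DMSO group, which was the highest of the 6 groups for Atp2a2, Itpr3, Stim1, Orai1 and Orai2.

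In the groups labelled Ago2-/-, tunicamycin against DMSO gave 0 members higher and 1 lower (Itpr2), with 11.6% and 10.3% of all loci. Thapsigargin against DMSO gave 1 higher (Stim2, log2 1.17) and 0 lower, with 8.21% and 9.81% of all loci. In both comparisons 7 of the 10 log2 ratios were above 0, with medians of 0.25 and 0.40, against 0 and -0.0203 over all loci. Itpr1 was close to the limit under thapsigargin (log2 0.94), and so was Orai1 (0.89). These comparisons share the Ago2-/- DMSO group, the lowest of the 6 for Itpr1, Stim1 and Orai3.

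The labelled genotypes were compared at each treatment, by label only. Ago2 mRNA was lower under the label Ago2-/- with DMSO (5.61 against 22.1 FPKM). It was higher there with tunicamycin (15.5 against 5.75) and with thapsigargin (20.7 against 17.0). These comparisons therefore cannot be read as the loss of AGO2 against its presence. Under DMSO, 1 member was at least 2-fold higher in Ago2-/- (Itpr2) and 2 were lower (Stim2 at -1.08 and Orai1 at -1.06), where 9.66% of all loci were higher and 8.37% lower. Under tunicamycin 0 were higher and 1 lower (Itpr2), with 11.6% and 9.88% of all loci. Under thapsigargin 1 was higher (Itpr2) and 0 were lower, with 7.42% and 9.97%. Stim2 was just below the limit there, at a log2 ratio of 0.96 and a fold of 1.95, and so was Atp2a3 under tunicamycin, at 0.90.

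**Figure D3:**
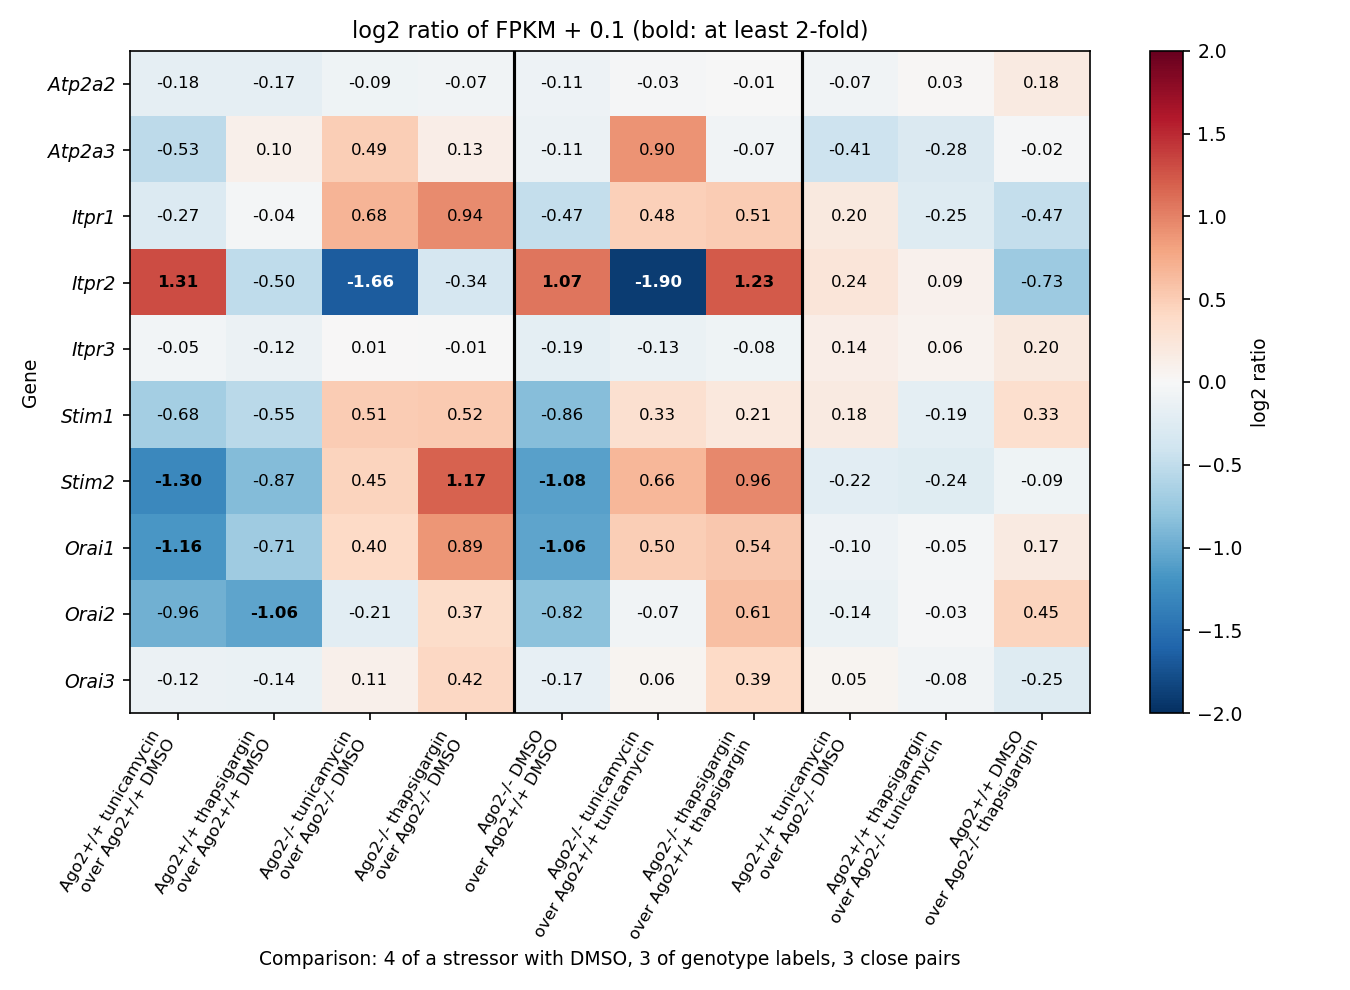
Cells give the log2 ratio of FPKM + 0.1 for the 10 genes (rows) in 10 comparisons (columns), from blue (lower) to red (higher), with values of at least 2-fold in bold and lines between the stressor comparisons, the genotype comparisons and the close pairs. Itpr2 holds the values farthest from 0, 1.31, -1.66 and -1.90, and in the 3 rightmost columns no value reaches 1 in size.

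The 3 close pairs were then examined for the members. Between Ago2+/+ tunicamycin and Ago2-/- DMSO, 0 of 10 members and 1.44% of all loci were past 2-fold in either direction. Between Ago2+/+ thapsigargin and Ago2-/- tunicamycin the counts were 0 members and 1.58% of loci, and between Ago2+/+ DMSO and Ago2-/- thapsigargin 0 members and 3.58%. The largest log2 differences of a member within these pairs were 0.41 (Atp2a3), 0.28 (Atp2a3) and 0.73 (Itpr2). For 6 of the 10 members (Atp2a3, Itpr2, Stim1, Stim2, Orai1 and Orai2) the groups of each of these 3 pairs were neighbours in the order of the 6 levels, as they were at 50.7% of all loci. For Itpr1, Itpr3 and Orai3 this held for 1 of the 3 pairs, and for Atp2a2 for 0.

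Over all 15 pairs of groups, the median size of the members' log2 ratio was smallest between Ago2+/+ thapsigargin and Ago2-/- tunicamycin (0.08) and largest between the DMSO groups labelled Ago2+/+ and Ago2-/- (0.65), where all loci had medians of 0.12 and 0.38. The members also lay close between Ago2+/+ tunicamycin and Ago2+/+ thapsigargin, with a median of 0.18 against 0.44 for all loci, although Itpr2 differed by 1.81 there. The genotype and the treatment cannot be told apart from whatever else sets these pairs of groups together.

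**Figure D4:**
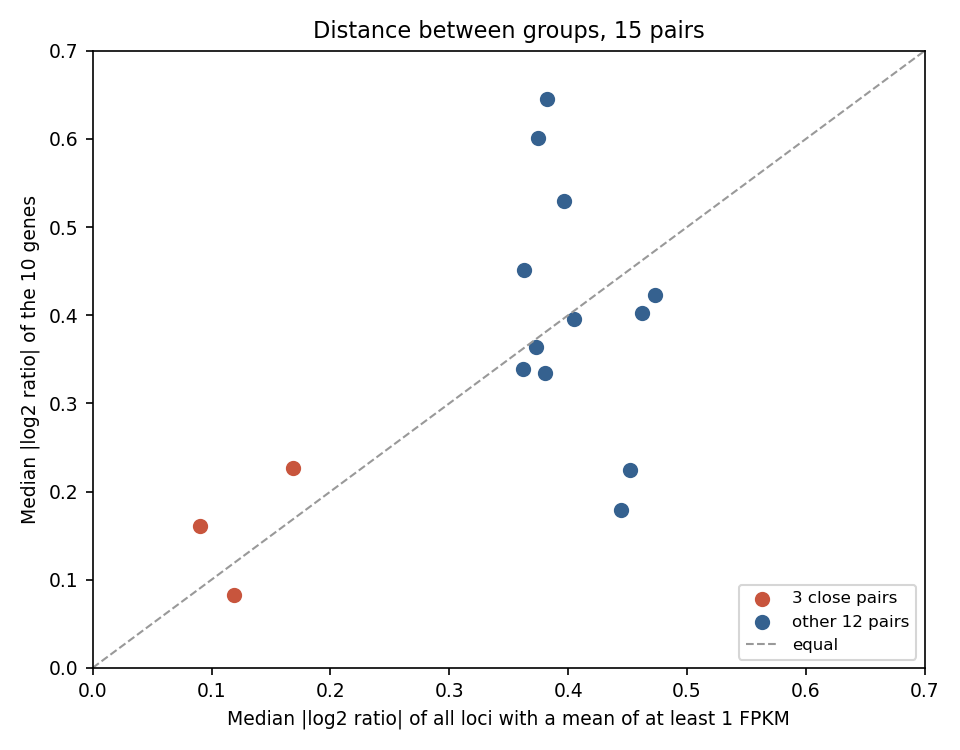
Each point is 1 of the 15 pairs of groups, with the median size of the log2 ratio over all loci on the horizontal axis and over the 10 genes on the vertical axis, and a dashed line where both are equal. The 3 close pairs (red) lie at the lower left, at 0.08, 0.16 and 0.23 on the vertical axis.

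The loci nearest in pattern to the widest-ranging member of each family were found by the root mean square (rms) difference of centred log2 values over the 6 groups. For Itpr2 these were Arf6 (rms 0.08), a small GTPase of membrane traffic, Ly96 (0.14), a partner of the receptor TLR4, and Ankrd37 (0.15). Arf6 was at 139.5 and 135 FPKM in Ago2+/+ tunicamycin and Ago2-/- DMSO and at 43.0 in Ago2-/- tunicamycin. For Stim2 they were the locus that holds Bloc1s1 with Rdh5 (0.07), Ermp1 (0.09) and Mif4gd (0.10). For Orai1 they were Mien1 (0.04), Tmem256 (0.04) and Ubtd1 (0.05), and for Atp2a3 Tapbpl (0.06), Kdm6b (0.08) and Stmn1 (0.09). With 6 points per locus and the same libraries behind each, likeness of this kind is a description.

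Of 99 genes in 10 lists on the handling of calcium, 97 were found and 64 reached a mean of 1 FPKM. In the groups labelled Ago2+/+, 4 of the 64 were at least 2-fold higher and 5 lower with tunicamycin than with DMSO (6.25% and 7.81%, against 9.61% and 8.29% of all loci). With thapsigargin 7 were higher and 2 lower (10.9% and 3.12%, against 9.27% and 7.54%). In the groups labelled Ago2-/-, 12 were higher and 4 lower with tunicamycin (18.8% and 6.25%, against 11.6% and 10.3% of loci), and 4 were higher and 6 lower with thapsigargin (6.25% and 9.38%, against 8.21% and 9.81%). Between the labelled genotypes, 3 were higher and 6 lower in Ago2-/- under DMSO (4.69% and 9.38%, against 9.66% and 8.37% of loci). Under tunicamycin it was 12 and 4 (18.8% and 6.25%, against 11.6% and 9.88%), and under thapsigargin 2 and 9 (3.12% and 14.1%, against 7.42% and 9.97%). In each of the 3 close pairs the count was 0. Of all loci, 1.44% were past 2-fold in either direction between Ago2+/+ tunicamycin and Ago2-/- DMSO. The share was 1.58% between Ago2+/+ thapsigargin and Ago2-/- tunicamycin and 3.58% between Ago2+/+ DMSO and Ago2-/- thapsigargin.

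Among the genes around the pump, Wfs1 ranged the widest. Of 8 genes in the list of SERCA relatives and regulators, 4 passed the minimum. Wfs1, whose product wolframin sits in the ER membrane, stood at 16.0 FPKM with DMSO, 23.8 with tunicamycin and 25.0 with thapsigargin under the label Ago2+/+, and at 29.6, 28.6 and 10.9 under Ago2-/-. The latter values give a log2 ratio of thapsigargin to DMSO of -1.43. Tmx1, a redox protein that binds SERCA2, ranged from 28.8 to 48.9 FPKM, and Tmem203 from 6.02 to 9.31.

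The ryanodine receptors Ryr1, Ryr2 and Ryr3, the other large release channels of the ER, all had means below 1 FPKM. Of the 5 leak and release genes that passed, Psen2, which encodes presenilin 2, was past 2-fold in 4 of the 7 comparisons. Its lowest levels were 1.46 FPKM in Ago2-/- DMSO and 1.95 in Ago2+/+ tunicamycin, against 3.41 to 4.71 in the other 4 groups. Tmbim6, a leak protein that protects from cell death, ranged from 135 to 215 FPKM, and Pkd2 from 21.9 to 29.7.

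All 9 listed buffers of the ER lumen passed the minimum. Rcn3, a reticulocalbin of the secretory pathway, was at 122 FPKM in Ago2+/+ thapsigargin and 137 in Ago2-/- tunicamycin against 21.0 to 26.5 in the other 4 groups. Calu, which encodes calumenin, was at 467 and 520 FPKM in the same groups against 196 to 238. These were the groups with the high sum of contractile markers. Calr, the main calcium buffer of the ER, ranged only from 1546 to 1871 FPKM.

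Of the IP3 receptor regulators, 10 of 13 listed genes passed. Bcl2, whose product binds IP3 receptors, was at 4.90 and 4.59 FPKM in Ago2+/+ tunicamycin and Ago2-/- DMSO and between 1.59 and 2.33 in the other 4 groups. These groups were also the highest for Itpr2. Itpripl2 was at 32.6 and 32.5 FPKM in the same groups, against 13.2 to 26.4 elsewhere. Erp44, a lumenal partner of the type 1 receptor, ranged from 21.5 to 40.1 FPKM.

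Among regulators of store-operated entry and of ER contacts, 6 of 12 passed, and Cracr2a, Cracr2b, Jph1, Jph2 and Jph4 did not. Esyt1, a calcium-regulated tether between the ER and the plasma membrane, was at 17.1 and 16.9 FPKM in Ago2+/+ tunicamycin and Ago2-/- DMSO, where Stim2 and Orai1 were lowest, but at its highest, 64.6 and 69.2 FPKM, in Ago2+/+ thapsigargin and Ago2-/- tunicamycin. Saraf, an inhibitor of STIM, was lowest where Stim2 was highest, at 45.2 FPKM in Ago2-/- thapsigargin and 61.6 in Ago2+/+ DMSO, and reached 103 FPKM in Ago2-/- tunicamycin. Tmem110, which encodes the STIM activator STIMATE, ranged from 8.09 to 17.1 FPKM.

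Trpc1, a cation channel linked to store depletion, was highest in the same close pair as the summed STIM and ORAI levels. With DMSO, tunicamycin and thapsigargin, in this order, it was at 6.82, 0.905 and 2.29 FPKM where the label was Ago2+/+ and at 0.717, 2.32 and 4.94 where it was Ago2-/-. It was past 2-fold in each of the 7 comparisons by label. The Trpc2 locus, which also holds Xndc1 and Xntrpc, ranged from 10.7 to 16.1 FPKM.

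Of the pumps and exchangers that take calcium out of the cytosol by other routes, 3 of 9 genes passed. Atp2b4, a plasma membrane pump, was at 5.43 FPKM in Ago2+/+ thapsigargin and 9.17 in Ago2-/- tunicamycin against 0.0737 to 0.582 in the other 4 groups. Atp2b1, its widely expressed relative, was lowest in the same groups, at 33.5 and 34.1 FPKM, against 62.5 to 98.1. Atp2c1, the Golgi pump, ranged from 18.6 to 32.5 FPKM.

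**Figure D5:**
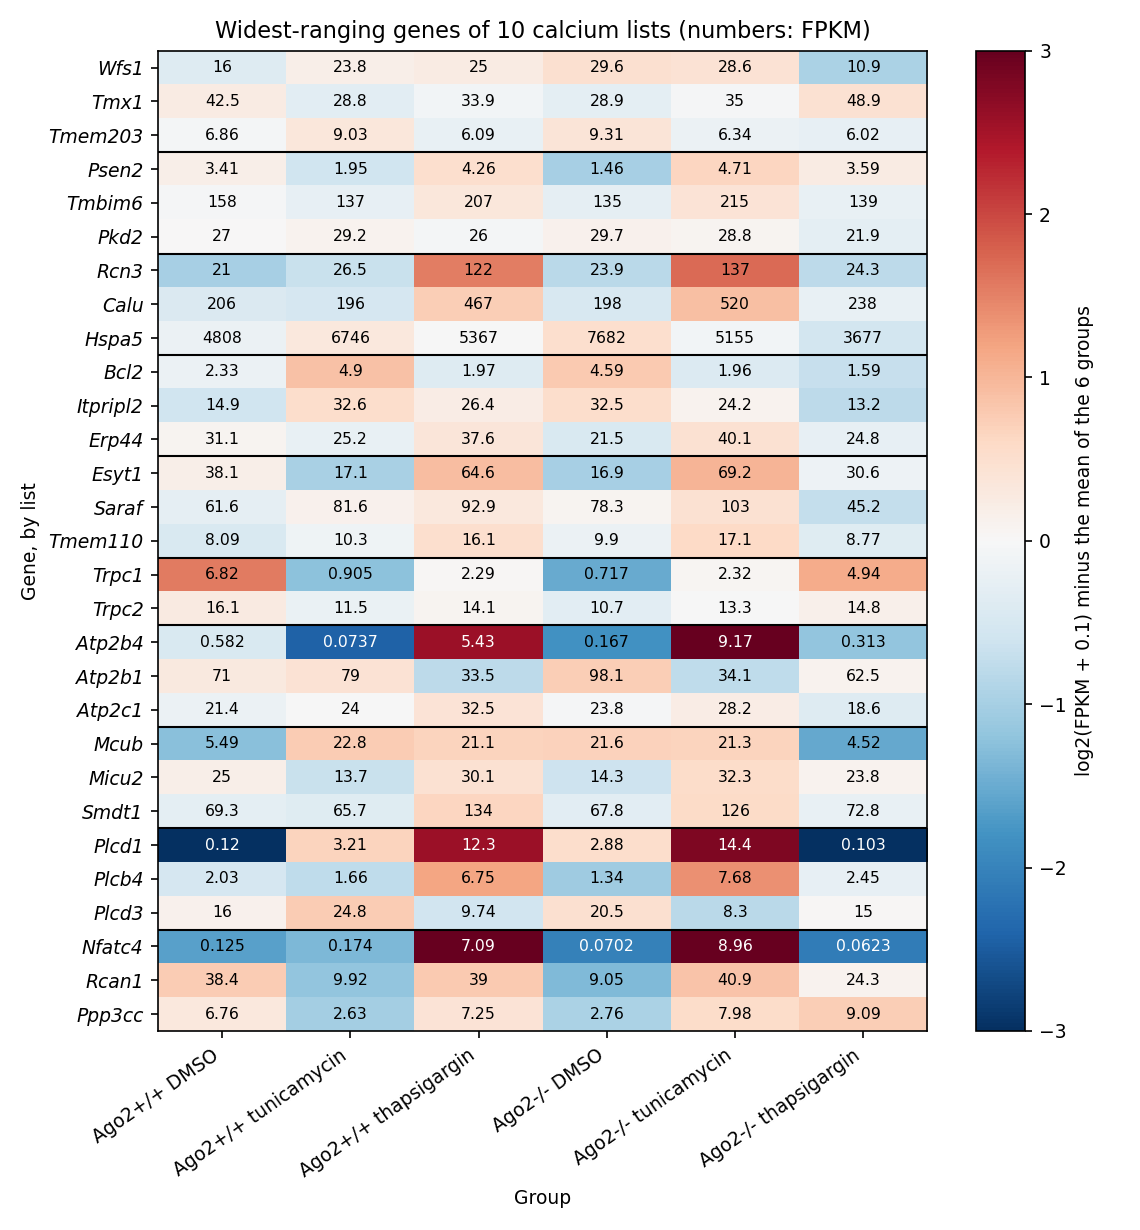
Rows are the genes with the widest range of each of the 10 lists, separated by lines, and columns are the groups, with the FPKM printed in each cell and the colour giving log2(FPKM + 0.1) minus the gene's mean. Rcn3, Atp2b4, Plcd1 and Nfatc4 are red in Ago2+/+ thapsigargin and Ago2-/- tunicamycin, and Trpc1 is red in Ago2+/+ DMSO and Ago2-/- thapsigargin.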

How the data were processed

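RNA of 18 libraries, 3 in each of 6 groups, was sequenced by the authors. The deposited values are FPKM, of which the authors gave 1 per group and locus, pooled over its libraries, in a table of 772485 rows for 51499 loci and 15 pairs of groups. The methods section names Ensembl release 91 as the annotation. The submitters' processing notes name FastQC 0.11.7, HISAT2 2.1.0, StringTie 1.3.4d and Cuffdiff 2.2.1 with the mouse build GRCm38. The sources used here do not give how libraries were scaled or whether strand was kept. The table also holds the authors' own fold changes, test statistics, p-values and significance calls for each pair of groups, and these were not used. Since each value is pooled, no test was run, and differences are described without p.

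Groups were taken from the library titles, in which DCR1 stands for the groups whose genotype label is Ago2+/+. In 4 libraries the source name and the genotype label disagree, and they stayed in the group of their title. Starts of loci in the table are counted from 0 and were raised by 1. Gene coordinates are those of GENCODE M21 (GRCm38), and promoter windows are those of RefSeq (GRCm38.p6).

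Ratios were computed as log2 of FPKM + 0.1, for the 11929 loci whose mean over the 6 groups reached 1 FPKM, and a locus counted as past the limit at 2-fold. Such a fold understates the difference of a low gene. The nearest loci were those with the smallest root mean square difference of centred log2 values. The text names all 10 members, the 3 genes of each list with the widest range among those that reached this mean, the 3 loci nearest to the widest-ranging member of each family, Ago2, Xist and the 4 Y-linked genes as checks of the labels, Hspa5 and Ddit3 as checks of the treatment, and those cell type markers that lead a sum, range widely or are near 0. Any other gene was named after its values were seen. The members, the lists and the rules were chosen with earlier results of these data known, and the search for the outer parts CCAAT and CCACG was added after that for the 4 whole motifs. The computation was tested on simulated data. Alternatives were a pseudocount of 1 or none, no minimum, centring on the median locus, a limit of 1.5-fold, loci with 1 gene name and a minimum of 10 FPKM. Python 3.11.15, pandas 2.3.3, NumPy 2.4.6 and matplotlib 3.10.9 were used.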

Additional observations from a re-analysis of the deposited data

Results flagged for a closer look

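Each of the 10 members was examined under both tunicamycin and thapsigargin. For 3 of these values a stressor went in opposite directions in both labelled genotypes, with a size of at least 1.5-fold in each. For Itpr2 under tunicamycin, the log2 ratio to DMSO was 1.31 in the groups labelled Ago2+/+ and -1.66 in those labelled Ago2-/-, a difference (Ago2-/- minus Ago2+/+) of -2.97. For Stim2 under thapsigargin the log2 ratios were -0.87 and 1.17, a difference of 2.04. For Orai1 under thapsigargin they were -0.71 and 0.89, a difference of 1.60. The differences were not tested, since each group has 1 pooled value. The share of all loci with such opposite directions is not given here. Over all loci the groups lay in close pairs that cross both labels. Whether Itpr2, Stim2 and Orai1 stand apart from other loci in this respect was therefore not tested.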

How the results depend on the processing

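No paired analysis was possible because the table holds 1 pooled value per group, and for the same reason no replicate could be left out. Of the 100 log2 ratios of the members, none that was past 2-fold changed direction under any alternative. A pseudocount of 1 FPKM moved 4 ratios below the limit (Itpr2 between the labelled genotypes, 0.86 under DMSO and 0.93 under thapsigargin, Orai1 between them under DMSO, -0.98, and Orai2 between thapsigargin and DMSO in Ago2+/+, -0.92). The members past 2-fold then numbered 1 between the genotypes under DMSO, 0 between them under thapsigargin and 0 for thapsigargin in Ago2+/+. Without a pseudocount, without a minimum, with loci of 1 gene name only, or centred on the median locus, which shifted ratios by at most 0.0285, the counts of members were as reported. At a limit of 1.5-fold the members past it were 5 for tunicamycin and 3 for thapsigargin in Ago2+/+, and 2 and 3 in Ago2-/-. Between the genotypes they were 5, 3 and 3 under DMSO, tunicamycin and thapsigargin, and between Ago2+/+ DMSO and Ago2-/- thapsigargin 1. The share of all loci past 1.5-fold is not given here, so these counts cannot be set against it.

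When a mean of 10 FPKM was required of loci, the share past 2-fold was 9.31% for tunicamycin and 8.81% for thapsigargin in Ago2+/+, 12.9% and 9.33% in Ago2-/-, and 9.37%, 12.5% and 9.93% between the genotypes under DMSO, tunicamycin and thapsigargin. In the close pairs it was 0.651% (Ago2+/+ tunicamycin with Ago2-/- DMSO), 0.718% (Ago2+/+ thapsigargin with Ago2-/- tunicamycin) and 1.30% (Ago2+/+ DMSO with Ago2-/- thapsigargin). The depth is unknown, so the precision of the low genes Atp2a3 and Itpr2 cannot be given.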

Other observations

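Of the genes of calcium uptake and release by mitochondria, all 11 listed passed the minimum, and 1 of them (9.09%) was past 2-fold in each of the 7 comparisons by label, namely Mcub or Micu2. Of all loci, between 16.8% and 22.0% were past 2-fold in either direction in these comparisons. The genes with the widest range are given here. Mcub, which encodes the inhibitory subunit of the calcium uniporter, was at 5.49 FPKM in Ago2+/+ DMSO and 4.52 in Ago2-/- thapsigargin, where the summed STIM and ORAI levels were highest. It was between 21.1 and 22.8 FPKM in the other 4 groups. Mcu, which forms the pore, ranged only from 15.2 to 25.0 FPKM. Micu2, a calcium-sensing regulator of the pore, was at 13.7 and 14.3 FPKM in Ago2+/+ tunicamycin and Ago2-/- DMSO and between 23.8 and 32.3 elsewhere. Smdt1, on a locus that also holds Fam109b, was at 134 and 126 FPKM in Ago2+/+ thapsigargin and Ago2-/- tunicamycin and between 65.7 and 72.8 elsewhere.

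Upstream of the IP3 receptors, 5 of 10 phospholipase C genes passed the minimum. Plcd1 was at 12.3 FPKM in Ago2+/+ thapsigargin and 14.4 in Ago2-/- tunicamycin, at 3.21 and 2.88 in Ago2+/+ tunicamycin and Ago2-/- DMSO, and at 0.120 and 0.103 in Ago2+/+ DMSO and Ago2-/- thapsigargin. Plcb4 was at 6.75 and 7.68 FPKM in the first of these pairs and between 1.34 and 2.45 in the other 4 groups, while Plcd3 was lowest there, at 9.74 and 8.30 FPKM.

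Downstream of calcium entry, 9 of 12 calcineurin and NFAT genes passed. Nfatc4, a transcription factor that calcineurin activates, was at 7.09 FPKM in Ago2+/+ thapsigargin and 8.96 in Ago2-/- tunicamycin and at most 0.174 in the other 4 groups. Rcan1, a calcineurin inhibitor that calcineurin signalling itself induces, was at 9.92 and 9.05 FPKM in Ago2+/+ tunicamycin and Ago2-/- DMSO, where Stim2 and Orai1 were lowest. It was at 38.4 FPKM in Ago2+/+ DMSO and 24.3 in Ago2-/- thapsigargin, where Stim2 and Orai1 were highest. In Ago2+/+ thapsigargin and Ago2-/- tunicamycin, where both were intermediate, Rcan1 stood at its highest, 39.0 and 40.9 FPKM. A link between these genes was not tested. Ppp3cc, a catalytic subunit of calcineurin, was at 2.63 and 2.76 FPKM in Ago2+/+ tunicamycin and Ago2-/- DMSO and between 6.76 and 9.09 elsewhere.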
